A study of Homo sapiens with 6 samples.

Results

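A set of 40 genes of fatty acid synthesis, triglyceride storage in lipid droplets and lipolysis was followed in A498 cells after knockdown of RNF26. The set is a list of named genes, matched by symbol to the Ensembl IDs of the deposited count table, and all 40 were found among its 61541 genes. All 40 also passed the filter of a mean of at least 1 CPM (the count scaled to the size of its library), which left 14766 genes in the test. The list was divided by role into 16 synthesis genes (with the regulator SREBF1), 4 fatty acid activation genes, 12 storage genes, 5 lipolysis genes, the lipolysis inhibitor G0S2 and 2 genes of mitochondrial import.

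Fatty acids are built in the cytosol from citrate-derived acetyl-CoA, lengthened and desaturated at the endoplasmic reticulum, activated with coenzyme A, and joined to glycerol as triglyceride. Triglyceride is kept in droplets with a coat of perilipins, and is released by a chain of lipases when fatty acids are needed. SREBF1 encodes SREBP-1, the membrane-bound transcription factor that raises most genes of the synthesis branch, and clear cell renal carcinoma, the labelled origin of A498, takes its name from cells rich in lipid and glycogen.

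Of the 6 libraries, 3 came from A498 cells that carried a control hairpin (shcontrol) and 3 from A498 cells that carried an shRNA to RNF26 (shRNF26), an E3 ubiquitin ligase of the endoplasmic reticulum membrane. Hairpins were delivered by what the labels call transfection infection, and all cells grew in serum-supplemented RPMI-1640. How many hairpins or clones were used, and whether replicates were separate cultures, was not given in the labels, so a p-value speaks only to the spread among these libraries, part of which may be technical. RNF26 (ENSG00000173456) stood at 1972 ± 49.7 CPM (mean ± SD, n = 3) in the controls and at 68.7 ± 0.482 CPM after knockdown. Totals ran from 16682871 to 18021718 gene counts per library. The label of the cells was set beside 2 marker lists. Of 20 renal and clear cell carcinoma markers, 4 reached a mean of 1 CPM and 16 did not, with SLC17A3 at 0 counts in every library. Of 17 squamous epithelial markers, 17 reached it. The renal list summed to 55.0 to 56.9 CPM in the control libraries and 77.7 to 81.3 CPM in the knockdown libraries, and the squamous list to 6582 to 6814 CPM and 3842 to 3919 CPM. The part of these differences in the results below was not tested. In bulk RNA, fewer cells of a type and less RNA per cell cannot be told apart.

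The knockdown libraries held more RNA of the lipogenic regulator SREBF1, of FASN, ACLY and ACSS2 in fatty acid synthesis and of the desaturases SCD, FADS1 and FADS2, and far less of G0S2, the inhibitor of the first lipase. Of the 40 members, 12 rose and 11 fell at an adjusted p below 0.05 in edgeR's quasi-likelihood test, and 17 did not pass. That is 57.5% called, against 41.4% of all tested genes, of which 18.9% were higher and 22.6% lower. Calls with a log2 fold change of at least 0.5 in size numbered 7, where the share over all tested genes was 11.3%. Of these, 3 were higher (SREBF1, SCD and DGAT2; 3.98% of all tested genes) and 4 lower (ACACA, MGLL, G0S2 and CPT1A; 7.36%). In 23 members the 2 groups of libraries did not overlap, as in 50.1% of all tested genes. The split of the calls depended on scaling. With libraries scaled by total counts alone, 18 members were higher and 7 lower, and over all tested genes the calls turned from 2785 higher and 3332 lower to 4449 and 2269.

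**Figure D1:**
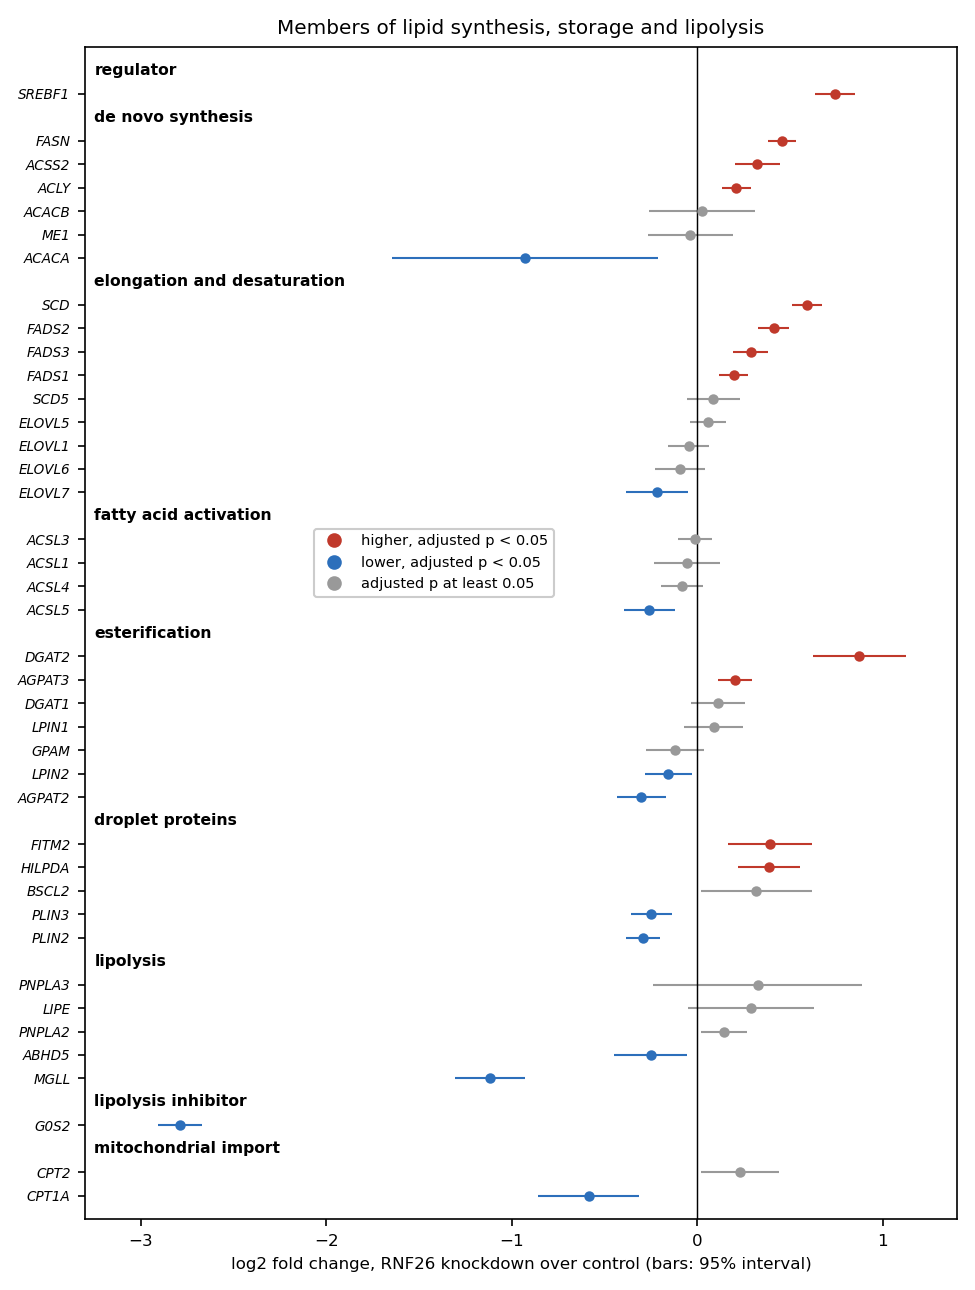
Log2 fold change of each of the 40 members, RNF26 knockdown over control (horizontal axis), with its 95% interval, grouped by role on the vertical axis and coloured by the edgeR call. SREBF1, FASN, SCD and FADS2 lie to the right of 0, while G0S2 lies far to the left at -2.79, apart from every other member.

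SREBF1 (ENSG00000072310) had the second largest rise of the 40. It measured 83.9, 75.5 and 73.9 CPM in the controls against 128, 133 and 130 CPM after knockdown. The groups did not overlap, and the log2 fold change was 0.74 (SE 0.052, adjusted p = 1.01e-09), or 1.67-fold. SREBF1 shares 6.92% of its exon bases with RAI1 on the opposite strand, a gene that also rose (0.23), and the labels do not say whether the counting used strand. Gene counts do not show how much of the SREBP-1 protein was cleaved to its active form.

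Of the 6 enzymes of de novo synthesis, 3 rose, 1 fell and 2 did not pass. Fatty acid synthase, FASN, which carries out the whole cycle from malonyl-CoA to palmitate, was the member with the highest CPM. FASN (ENSG00000169710) measured 940, 888 and 854 CPM in the controls against 1222, 1227 and 1232 CPM after knockdown. Every knockdown library lay above every control library, by a log2 fold change of 0.46 (SE 0.037, adjusted p = 7.54e-09). ACLY, which cleaves citrate to cytosolic acetyl-CoA, rose from 455 ± 17.6 to 526 ± 2.63 CPM (log2 fold change 0.21). ACSS2, which makes acetyl-CoA from acetate, rose from 38.9 ± 0.603 to 48.6 ± 1.33 CPM (0.32). Both suppliers of acetyl-CoA on the list and the synthase itself were higher. The malic enzyme ME1, a source of NADPH, did not pass (log2 fold change -0.039, 95% interval -0.27 to 0.19), nor did ACACB, the acetyl-CoA carboxylase of the mitochondrial surface (0.025, interval -0.26 to 0.31).

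ACACA encodes the acetyl-CoA carboxylase that makes malonyl-CoA for synthesis. It was counted 98, 285 and 68 times in the controls against 85, 90 and 78 times after knockdown. Control replicate 2 alone was high, and the other libraries of both groups overlapped. The log2 fold change of -0.93 (SE 0.34, adjusted p = 0.037) became -0.049 (adjusted p = 0.87) without control replicate 2, and the call was lost under 7 of 13 other settings. At 0.695 CPM per kilobase of exon in the control libraries, a mean raised by control replicate 2, ACACA stood far below FASN (95.5) and ACLY (87.2), its neighbours in the pathway. ACACA lies in a stretch of chromosome 17 for which the current human assembly holds alternate sequences, and the labels do not say how reads that match more than 1 place were counted.

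Most desaturases rose too. Of 9 elongation and desaturation genes, 4 rose, 1 fell and 4 did not pass, and the 4 that rose were all desaturases or desaturase-like genes. SCD (ENSG00000099194), the delta-9 desaturase that turns stearate into oleate, measured 390, 377 and 403 CPM in the controls against 586, 572 and 605 CPM after knockdown. The groups were well separated, with a log2 fold change of 0.59 (SE 0.038, adjusted p = 3.62e-10), or 1.51-fold. FADS2, the delta-6 desaturase of polyunsaturated fatty acids, rose from 218 ± 5.26 to 290 ± 8.05 CPM (log2 fold change 0.41), FADS1, the delta-5 desaturase, from 274 ± 2.16 to 314 ± 4.99 CPM (0.20), and FADS3, a relative of both, from 89.3 ± 1.57 to 109 ± 1.95 CPM (0.29). FADS1 and FADS2 share 490 exon bases on opposite strands, so reads there may not be told apart. SCD5, the second delta-9 desaturase, did not pass (0.086, interval -0.06 to 0.23).

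No elongase was called higher. ELOVL6, which lengthens palmitate, had a log2 fold change of -0.093 (interval -0.23 to 0.04), ELOVL5, which lengthens polyunsaturated chains, 0.056 (-0.04 to 0.15) and ELOVL1, which makes very long saturated chains, -0.046 (-0.16 to 0.06). ELOVL7 fell from 22.4 ± 0.762 to 19.3 ± 0.638 CPM (-0.22, adjusted p = 0.034). That call was lost with total-count scaling (-0.13), with DESeq2, without a filter on low counts and without any of control replicates 1 and 2 and knockdown replicates 1 and 3.

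The ratio of SCD to SCD5 within a library does not depend on how libraries are scaled. Per kilobase of exon it was 10.1, 9.94 and 9.98 in the controls against 14.3, 14.2 and 14.0 after knockdown. The 3 control ratios lay below the 3 knockdown ratios, a difference of 0.51 on the log2 scale. The exact two-sided permutation test gave p = 0.10, the smallest that 3 against 3 allows, and 0.12 after adjustment over the 6 such ratios compared.

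Promoters are printed here for SREBF1 and SCD, the regulator and the most raised desaturase. They come from RefSeq (GRCh38.p14), run 5′ to 3′ from 250 bases before to 50 bases after the annotated start, and capitals mark CCAAT (NF-Y box) and GGGCGG (Sp1 box) on either strand. SREBF1 is at chr17:17836937-17837236 on the minus strand, and SCD at chr10:100346983-100347282 on the plus strand.
SREBF1: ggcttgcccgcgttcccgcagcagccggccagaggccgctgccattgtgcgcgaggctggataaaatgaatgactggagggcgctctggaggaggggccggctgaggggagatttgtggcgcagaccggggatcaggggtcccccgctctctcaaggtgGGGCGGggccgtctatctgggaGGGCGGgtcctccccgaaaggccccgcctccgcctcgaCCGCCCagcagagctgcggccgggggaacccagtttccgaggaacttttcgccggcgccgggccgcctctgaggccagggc
SCD: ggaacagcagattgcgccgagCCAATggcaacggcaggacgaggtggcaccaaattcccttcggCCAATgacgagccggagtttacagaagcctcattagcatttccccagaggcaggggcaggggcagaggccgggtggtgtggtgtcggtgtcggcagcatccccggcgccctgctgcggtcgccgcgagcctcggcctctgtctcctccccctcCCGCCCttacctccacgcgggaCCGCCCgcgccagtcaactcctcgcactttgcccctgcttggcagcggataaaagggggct
SCD held 2 CCAAT and 2 GGGCGG matches, and SREBF1 held 3 GGGCGG matches. A promoter was found for 34 of the 40 members (none for FASN, DGAT2 or HILPDA), 9 of them among the 12 that rose. A gene was counted if any of its annotated starts held the motif, and the 34 members had 54 starts, so genes with more starts are favoured. CCAAT stood in 6 of those 9 (ACLY, ACSS2, AGPAT3, FADS2, FADS3 and SCD), in 2 of the 10 with a promoter that fell and in 8 of the 15 that did not pass. In ACSS2, AGPAT3 and FADS2 not every start held it. Among the 27305 genes with a promoter known to RefSeq 39.7% held it, and among the 10765 of these that were tested 42.9%. GGGCGG stood in 7 of the 9, 7 of the 10 and 14 of the 15, and in 76.6% of the tested genes. The letters TCACNCCAC (a sterol regulatory element), CACGTG (E-box) and TGANTCA (AP-1 site), also read on both strands, were in none of those 9. They were in 1.44%, 12.4% and 7.23% of the tested genes, and at such shares absence from 9 genes says little. None of the 5 motifs contains another, and a match is a description of letters only.

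**Figure D2:**
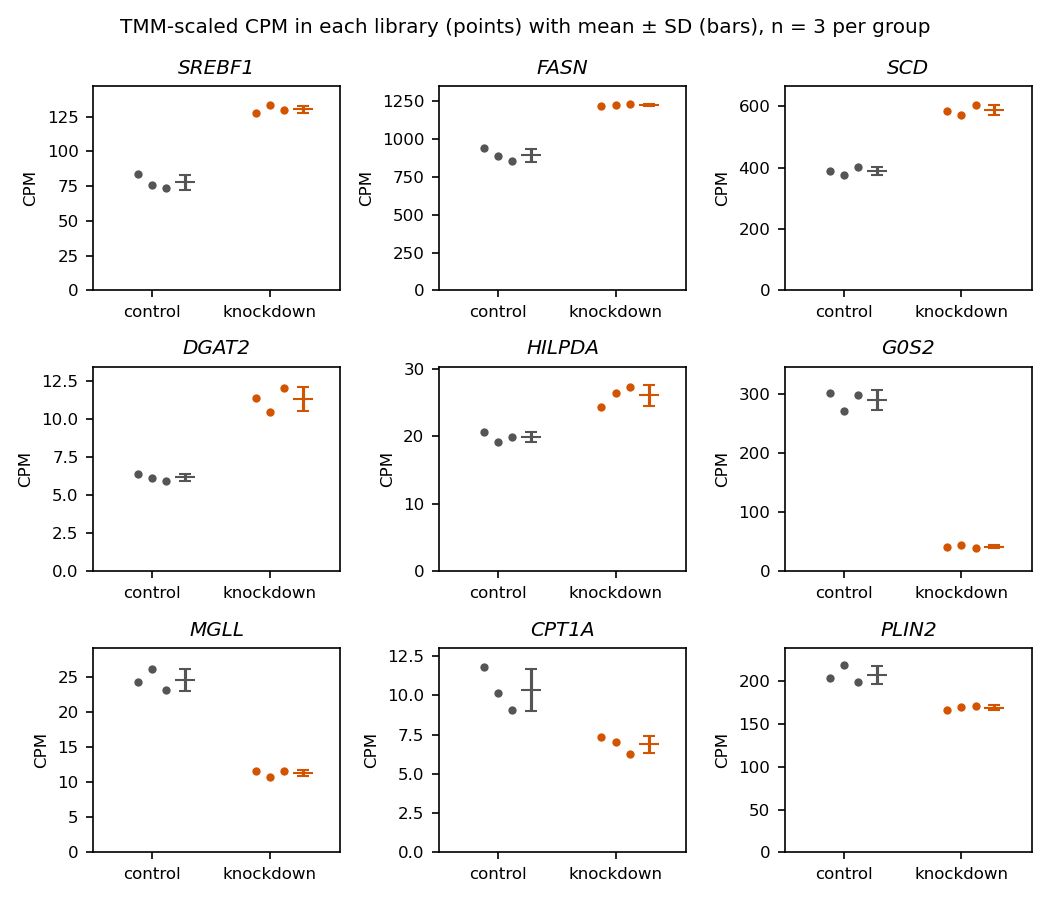
TMM-scaled CPM (vertical axes, from 0) of 9 members in each control and knockdown library (points), with mean ± SD for 3 libraries per group (bars). The 3 knockdown libraries lie above the 3 control libraries for SREBF1, FASN, SCD, DGAT2 and HILPDA, and below them for G0S2, MGLL, CPT1A and PLIN2.

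The acyl-CoA synthetases, which activate a fatty acid before it is esterified or burned, changed little. Of 4, 1 fell and 3 did not pass. ACSL5 measured 38.7, 42.5 and 40.7 CPM in the controls against 33.2, 35.6 and 33.1 CPM after knockdown (log2 fold change -0.26, adjusted p = 0.0037). It shares 3.40% of its exon bases with ZDHHC6 on the opposite strand, which had a like log2 fold change (-0.25). ACSL3, a synthetase found on droplets and the most abundant per kilobase of the 4, had a log2 fold change of -0.013 (interval -0.11 to 0.08). ACSL4, which prefers arachidonate, had -0.083 (-0.20 to 0.03) and ACSL1 -0.057 (-0.23 to 0.12). With total-count scaling these 3 lay above 0, at 0.078, 0.0073 and 0.034, and none was called.

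Esterification genes were split, with 2 higher, 2 lower and 3 not passing. DGAT2 (ENSG00000062282), one of the pair of enzymes that add the last acyl chain to triglyceride, had the largest rise of the 40. It measured 6.43, 6.15 and 5.97 CPM in the controls against 11.4, 10.5 and 12.1 CPM after knockdown, on 98 to 208 counts per library. The groups were well apart, and the log2 fold change was 0.87 (SE 0.12, adjusted p = 9.68e-06), or 1.83-fold. DGAT1, the other enzyme of this step, did not pass (0.11, interval -0.03 to 0.26). DGAT1 shares 10.7% of its exon bases with a gene on its own strand that had 0 counts. It shares 3.36% with HSF1 on the opposite strand, which was not called (-0.13). DGAT2 was the scarcer of the pair in both groups. Its ratio to DGAT1 per kilobase was 0.0586, 0.0594 and 0.0661 in the controls against 0.111, 0.0897 and 0.111 after knockdown (exact permutation p = 0.10, the smallest possible, 0.12 adjusted).

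The earlier steps had smaller log2 fold changes. AGPAT2, which adds the second acyl chain, measured 116, 101 and 105 CPM in the controls against 86.7, 94.7 and 79.5 CPM after knockdown (log2 fold change -0.30, adjusted p = 7.19e-04). AGPAT3, a relative that also makes phosphatidic acid, rose from 144 ± 4.69 to 166 ± 2.30 CPM (0.20). GPAM, the mitochondrial enzyme that adds the first chain, did not pass (-0.12, interval -0.27 to 0.04). Of the lipins, the phosphatases that make diacylglycerol, LPIN1 did not pass (0.089, interval -0.07 to 0.25). LPIN2 had the weakest call of the list (-0.16, adjusted p = 0.044), lost under 10 of 13 other settings.

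Droplet proteins were also split, with 2 higher (HILPDA and FITM2), 2 lower (both perilipins on the list) and 1 not passing. PLIN2 (ENSG00000147872), the coat protein most closely tied to droplet content, measured 204, 218 and 199 CPM in the controls against 166, 170 and 171 CPM after knockdown. No knockdown library reached a control library (log2 fold change -0.29, SE 0.044, adjusted p = 2.78e-05). PLIN3, which moves between cytosol and droplet, measured 114, 105 and 104 CPM in the controls against 86.1, 95.8 and 89.9 CPM after knockdown (-0.25, adjusted p = 9.52e-04). Their levels were nearly even in both groups, with a ratio of PLIN2 to PLIN3 per kilobase of 1.07 ± 0.0813 in the controls against 1.03 ± 0.0451 after knockdown (exact permutation p = 0.60, adjusted 0.60). PLIN3 shares 17.8% of its exon bases with ENSG00000267484 on the opposite strand, which had 0 counts, so the level of PLIN3 per kilobase is less certain.

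HILPDA, a small droplet protein that like G0S2 inhibits the lipase ATGL and is induced by hypoxia, measured 20.7, 19.2 and 19.9 CPM in the controls against 24.4, 26.5 and 27.4 CPM after knockdown. It rose by 0.39 on the log2 scale (SE 0.080, adjusted p = 6.86e-04), the opposite direction to G0S2. FITM2, which helps droplets bud from the endoplasmic reticulum, rose from 10.2 ± 0.904 to 13.3 ± 1.02 CPM (0.39, adjusted p = 0.0072). BSCL2, which encodes the droplet assembly factor seipin, had a like change (0.32, interval 0.02 to 0.62) that did not pass (adjusted p = 0.083), on 79 to 129 counts. It shares 40.6% of its exon bases with the readthrough gene HNRNPUL2-BSCL2 on the same strand, which had 0 to 2 counts, and 11.3% with GNG3 on the opposite strand, which rose (0.99) on 6 to 37 counts.

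Lipolysis held the largest change. G0S2 binds and inhibits ATGL, the lipase that removes the first chain of triglyceride and is encoded by PNPLA2. G0S2 (ENSG00000123689) measured 301, 270 and 297 CPM in the controls against 40.5, 45.1 and 40 CPM after knockdown, on 4435 to 5234 against 687 to 830 counts. The log2 fold change was -2.79 (SE 0.057, adjusted p = 6.96e-18), or 6.91-fold lower. It ranked 29 from the lowest of the 14766 tested genes by log2 fold change. Its value lay between -2.85 and -2.70 under all 13 other settings. The gene on its opposite strand, HSD11B1-AS1, shares none of its exon bases and had 1 to 7 counts per library.

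No lipase on the list was called higher. PNPLA2 (ENSG00000177666) measured 63.0, 57.6 and 54.3 CPM in the controls against 62.6, 64.5 and 66.3 CPM after knockdown, and the groups overlapped. Its log2 fold change was 0.14 (interval 0.02 to 0.27, adjusted p = 0.060). Settings under which it passed included total-count scaling (0.24), a minimum mean of 5 CPM (0.15) and leaving out control replicate 1 (0.20). Per kilobase of exon G0S2 stood 21.2, 20.8 and 24.3 times above PNPLA2 in the controls against 2.87, 3.10 and 2.67 times above it after knockdown. The log2 difference of that ratio was -2.94, with no overlap between groups (exact permutation p = 0.10, the smallest possible, 0.12 adjusted). PNPLA2 shares 10.4% of its exon bases with ENSG00000255108 on the opposite strand, which had 3 to 6 counts per library.

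The next enzymes of the chain differed among themselves. MGLL (ENSG00000074416), the monoglyceride lipase that takes the last chain, measured 24.3, 26.2 and 23.1 CPM in the controls against 11.6, 10.8 and 11.6 CPM after knockdown. The knockdown libraries held 46.1% of the control level (log2 fold change -1.12, SE 0.090, adjusted p = 7.90e-09). The ratio of MGLL to PNPLA2 per kilobase was 0.137 ± 0.0112 in the controls against 0.0569 ± 0.0030 after knockdown (exact permutation p = 0.10, the smallest possible, 0.12 adjusted). The last of the 6 ratios, PLIN2 to PNPLA2, was 2.69 ± 0.219 in the controls against 1.98 ± 0.0309 after knockdown (exact permutation p = 0.10, 0.12 adjusted). LIPE, the hormone-sensitive lipase that acts on diglyceride, did not pass (0.29, interval -0.05 to 0.63), on 70 to 132 counts. PNPLA3, a relative of ATGL, was close to the filter, with 21 to 34 counts against 29 to 37 (log2 fold change 0.32, interval -0.24 to 0.89).

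ABHD5 encodes the coactivator of ATGL. It measured 20.1, 24.6 and 24.0 CPM in the controls against 19.8, 17.3 and 20.6 CPM after knockdown, and control replicate 1 lay within the knockdown range. Its log2 fold change of -0.25 passed narrowly (adjusted p = 0.040), and the call was lost under 6 of 13 other settings. It shares 2.25% of its exon bases with ANO10 on the opposite strand, which rose (0.26).

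**Figure D3:**
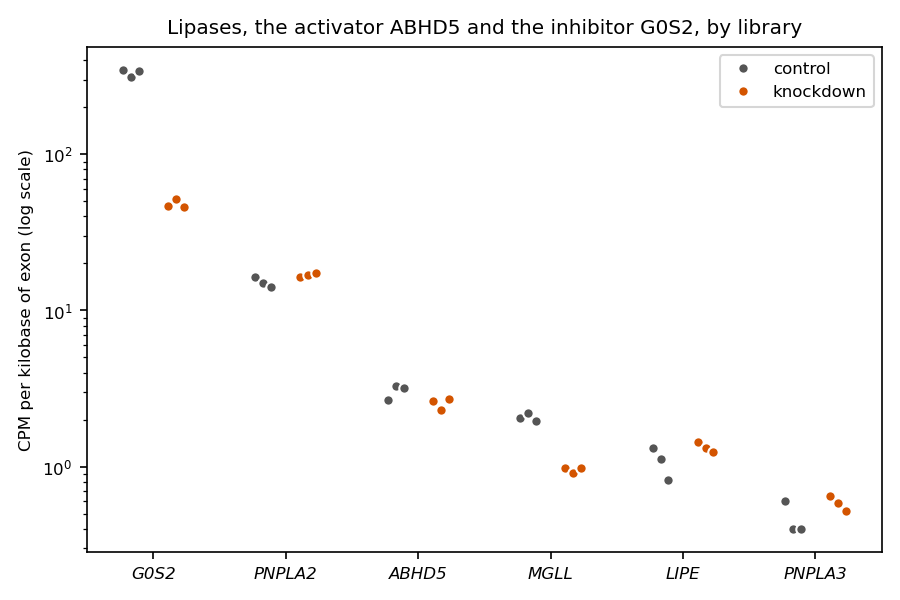
CPM per kilobase of exon (vertical axis, log scale) of G0S2 and 5 genes of lipolysis in each control and knockdown library (points, no error bars). G0S2 lies at 312 to 347 in the controls and at 46.1 to 52.1 in the knockdown, while PNPLA2 spans 14.1 to 16.4 and 16.3 to 17.3.

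The promoters of G0S2 and PNPLA2 are shown because the inhibitor fell and the lipase it binds was not called. They have the same source, length and marking as above, with TCACNCCAC marked as well. G0S2 is at chr1:209675162-209675461 on the plus strand, and PNPLA2 at chr11:818664-818963 on the plus strand.
G0S2: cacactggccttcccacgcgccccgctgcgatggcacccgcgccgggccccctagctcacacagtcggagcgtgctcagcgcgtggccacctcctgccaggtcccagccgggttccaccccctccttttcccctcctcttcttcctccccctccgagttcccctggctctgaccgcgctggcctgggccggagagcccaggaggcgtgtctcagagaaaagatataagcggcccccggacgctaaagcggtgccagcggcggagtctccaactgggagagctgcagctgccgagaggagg
PNPLA2: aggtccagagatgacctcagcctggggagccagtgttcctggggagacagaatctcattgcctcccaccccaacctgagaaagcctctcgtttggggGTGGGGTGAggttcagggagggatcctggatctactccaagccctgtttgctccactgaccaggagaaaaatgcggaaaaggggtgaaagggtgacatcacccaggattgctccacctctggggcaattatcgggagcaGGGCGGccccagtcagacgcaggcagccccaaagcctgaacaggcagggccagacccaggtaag
G0S2 held none of the 5 motifs in this window. PNPLA2 held 1 match to TCACNCCAC on the opposite strand, 153 bases before the start, and 1 GGGCGG. The only other member with TCACNCCAC was ACSL1, at 1 of its 5 annotated starts.

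Of the 2 members that bring fatty acids into mitochondria, CPT1A fell and CPT2 did not pass. CPT1A (ENSG00000110090), the outer-membrane carnitine palmitoyltransferase that limits oxidation and is blocked by malonyl-CoA, measured 11.8, 10.2 and 9.08 CPM in the controls against 7.37, 7.01 and 6.28 CPM after knockdown. The groups did not overlap (log2 fold change -0.59, SE 0.13, adjusted p = 0.0013), and the knockdown libraries held 66.6% of the control level. CPT2, the inner-membrane partner, had 11.3 ± 0.313 and 13.3 ± 0.787 CPM (0.23, interval 0.02 to 0.44, adjusted p = 0.072).

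Synthesis, storage and lipolysis were then set side by side. Synthesis had 8 of 16 higher and 2 lower, storage 4 of 12 higher and 4 lower, and lipolysis 0 of 5 higher and 2 lower, with G0S2 counted apart. Lower calls of ACACA and ELOVL7 (synthesis), LPIN2 (storage) and ABHD5 (lipolysis) were lost under 6 to 10 of 13 other settings. The shares over all tested genes were 18.9% higher and 22.6% lower, as given above. Median log2 fold changes were 0.14, 0.10 and 0.14, beside 0.01 over all tested genes, and the difference between the branches was not tested. The median of lipolysis is the value of PNPLA2, which was not called, and it became -0.045 with a minimum mean of 5 CPM, which drops PNPLA3. The median of storage became 0.15 without control replicate 1 and 0.054 without control replicate 3. The members of lipolysis ran from -1.12 (MGLL) to 0.32 (PNPLA3). Without control replicate 2, the library that the call of ACACA rested on, there were 12 members higher and 7 lower, and without knockdown replicate 1 there were also 12 and 7.

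Levels per kilobase of exon, which allow genes to be compared, put G0S2 first in the control libraries at 334 CPM per kilobase. FASN (95.5), ACLY (87.2), SCD (72.7) and AGPAT2 (59.6) followed, and then PLIN2 (40.7) and PLIN3 (38.2). In the knockdown libraries FASN was first at 131, then SCD at 110 and ACLY at 101, and G0S2 and AGPAT2 stood level at 48.3 and 48.4. The lowest members were PNPLA3 (0.465 in the controls), ACACB (0.474) and ACACA, which stood at 0.433, 1.33 and 0.318 in the 3 control libraries and was lowest after knockdown, at 0.364. Exon length here is that of all annotated transcripts merged, so genes with many transcripts are set too low.

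Lists of other genes of the same pathways were examined in the same fit. Over all tested genes 41.4% were called, and the share was 33.3% for other synthesis genes, 38.5% for uptake genes, 41.7% for other esterification genes, 46.2% for other lipase genes and 50% for other regulators. Of 16 regulators with enough counts, 8 were called, 3 higher and 5 lower. INSIG2, which retains SREBPs in the membrane of the endoplasmic reticulum, went down from 42.9 ± 2.13 to 29.5 ± 2.42 CPM (log2 fold change -0.54). INSIG1, the other retention factor and named here after its values were seen, was more abundant and did not pass, at 80.8 ± 2.01 against 78.1 CPM (-0.049, adjusted p = 0.46). SCAP, which escorts SREBPs out, rose from 91.9 ± 6.03 to 107 ± 2.42 CPM (0.23). MID1IP1, an activator of acetyl-CoA carboxylase, fell (-0.54) and RXRA, the partner of nuclear receptors, rose (0.40). Of 15 other synthesis and elongation genes 3 rose and 2 fell, among them the mitochondrial citrate carrier SLC25A1 (0.25) and the mitochondrial genes MECR (0.34) and ACSF3 (0.25), which rose, and ELOVL4 (-0.70), which fell. The call of ACSF3 was lost without control replicate 2 (0.19) or knockdown replicate 3 (0.20).

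On the list of other droplet genes, which also holds genes of caveolae, more were lower than higher. Calls were made for 11 of 14, with 8 lower and 3 higher, so that 57.1% were lower against 22.6% over all tested genes, and the median was -0.17. The 8 lower include the caveolar genes CAVIN1, CAV2 and CAV1 (-0.16). CAVIN1, a coat protein of caveolae, fell from 480 ± 15.6 to 227 ± 5.47 CPM (log2 fold change -1.08, adjusted p = 4.55e-14). LDAF1, the partner of seipin in droplet assembly, fell from 32.8 ± 0.542 to 17.7 ± 0.466 CPM (-0.89), the GTPase RAB18 by 0.50 on the log2 scale and the caveolin CAV2 from 199 ± 6.30 to 147 ± 2.11 CPM (-0.43). PLIN1, PLIN5, CIDEA, CIDEB and CIDEC, droplet proteins of fat cells and liver, did not reach the filter, with at most 13 counts in a library.

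Other esterification and lipase genes had no common direction. GPAT3, which adds the first chain outside mitochondria, went from 102 ± 6.16 to 56.8 ± 0.867 CPM (log2 fold change -0.84, adjusted p = 3.15e-10), and AGPAT5 fell (-0.25). The lipid phosphatase PLPP3 rose (0.63), as did LPCAT3, an acyltransferase of phospholipids (0.34), though not without control replicate 3 (0.24, adjusted p = 0.053). In all 2 of 12 tested esterification genes rose and 3 fell. Of 13 lipase genes 4 rose and 2 fell. The endothelial lipase LIPG (0.37) and the lysosomal lipase LIPA (0.23) rose, and PNPLA8 (-0.43) and AADAC (-0.89) fell.

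Other genes of fatty acid oxidation were mostly higher where called. Their list also holds genes of the import step, CPT1B, CPT1C and SLC25A20. Calls were made for 11 of 25, with 10 higher and 1 lower, so that 40% were higher against 18.9%, and the median was 0.21. HSD17B4, a peroxisomal oxidation enzyme, rose from 69.9 ± 2.10 to 91.3 ± 4.25 CPM (log2 fold change 0.39, adjusted p = 7.82e-06). CPT1B (0.67), EHHADH (0.42) and ETFDH (0.35) also rose, each under 12 CPM, and each lost its call without some of the libraries. CPT1B lost it without control replicate 2 or 3 or knockdown replicate 1 or 2, at 0.49 to 0.69. ETFDH lost it without control replicate 1 or 3 or knockdown replicate 1, at 0.30 to 0.31. EHHADH lost it without any 1 library but control replicate 3, at 0.33 to 0.47. CPT1A, which fell, differed in direction from the 10 of this list that rose, among them its relative CPT1B.

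Uptake and binding genes gave 3 higher and 2 lower of 13. The fatty acid transporter SLC27A2 rose (log2 fold change 0.31) and ACBD3 fell (-0.20), though not with total-count scaling (-0.11). SLC27A3 was counted 20, 25 and 9 times in the controls against 21, 26 and 77 times after knockdown, and its call (1.12, adjusted p = 0.0497) rested on knockdown replicate 3, without which it was 0.27 (adjusted p = 0.61).

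**Figure D4:**
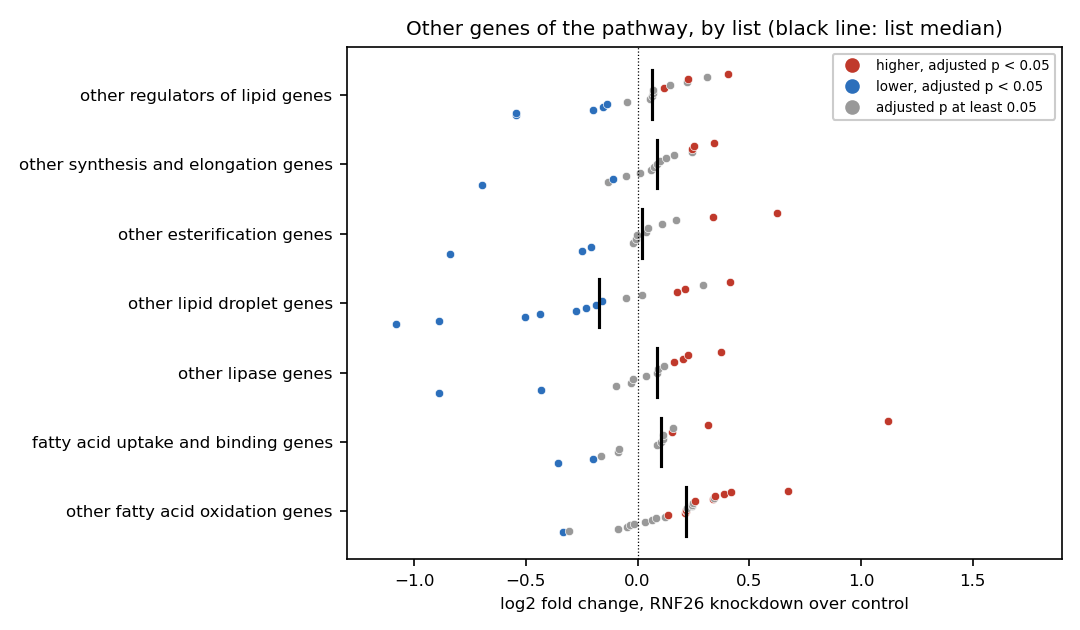
Log2 fold change, RNF26 knockdown over control (horizontal axis), of each tested gene in 7 lists of other pathway genes (vertical axis), coloured by the edgeR call, with the list median as a black line. The median of the droplet list lies at -0.17 and that of the oxidation list at 0.21, and the other 5 lie between 0.02 and 0.10.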

How the data were processed

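The authors deposited 1 table with 61541 Ensembl genes and 6 libraries. It is named for FPKM, but the deposited values are raw counts, whole numbers that sum to 16682871 to 18021718 per library, so 1 count is worth 0.0555 to 0.0599 CPM. Genome build hg19 is stated per the submitters' processing notes, but the table's ID for ACACA (ENSG00000278540) is one that GENCODE 29 (GRCh38) uses, so which gene models were counted is unsettled. Aligner, counter, annotation release and strand setting, all not given in the sources used here, are unknown, so overlapping genes and genes with near-identical copies are uncertain. The 2 rows without a name (0% of counts) were dropped. Gene names matched 61369 IDs through the supplied name table and 159 through GENCODE 29, which also gave exon lengths and overlaps without coordinates. Promoters came from RefSeq, matched by symbol.

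Counts were scaled by trimmed mean of M values (TMM) and tested two-sided in edgeR 4.0.16 (quasi-likelihood; R 4.3.3), on 14766 genes with a mean of at least 1 CPM. The p-values were adjusted over all of these (Benjamini-Hochberg). SE is the size of the log2 fold change divided by the root of F, intervals are 95%, and levels are TMM-scaled CPM. Other settings were other scalings and filters, DESeq2 1.42.0, a robust fit, a replicate block and leaving out each library. The code was tested on simulated data.

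The members, lists and tests were chosen with earlier results of these data known. Library values are given for members called with a log2 fold change of at least 0.5 in size, for at least the 2 with the smallest p in synthesis, storage and lipolysis, and for others added after their values were seen. From each other list up to 4 called genes with the largest change are named, apart from 1 that is not reported here.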

Additional observations from a re-analysis of the deposited data

How the results depend on the processing

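Of the 23 called members, 19 kept their direction and call under all 13 alternatives, among them SREBF1 (0.70 to 0.83), FASN (0.42 to 0.55), SCD (0.56 to 0.68), DGAT2 (0.82 to 0.96), MGLL (-1.16 to -1.03), CPT1A (-0.68 to -0.48) and PLIN2 (-0.32 to -0.20), as log2 fold changes. ACACA, ELOVL7, LPIN2 and ABHD5 lost the call under at least 1, and no called member changed direction. Members called lower numbered 7 with total-count scaling and with DESeq2, and 7 to 9 with 1 library left out. Members called higher numbered 18 with total-count scaling and 12 to 13 otherwise. That scaling shifted the median of all genes by 0.09, gave 4449 genes higher, and moved the median of synthesis to 0.23 and of storage to 0.19. A minimum mean of 5 CPM, which drops PNPLA3, turned the median of lipolysis to -0.045. With 1 library left out the median of storage ran from 0.054 to 0.15.

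Some members that were not called changed sign. With total-count scaling these were ME1 (0.052), ELOVL1 (0.045), ACSL1 (0.034), ACSL3 (0.078) and ACSL4 (0.0073). With 1 library left out ACACB ran from -0.027 to 0.11, ME1 from -0.16 to 0.047 and ACSL3 from -0.042 to 0.023. The cause was not tested. Total-count scaling also called SCD5 (0.18), ELOVL5 (0.15), DGAT1 (0.20), BSCL2 (0.41) and CPT2 (0.32). Replicate numbers did not pair the libraries (correlations of deviations 0.01, -0.03 and 0.05 for equal numbers). The replicate block gave 13 members higher and 10 lower, and over all genes 2935 higher and 3479 lower. Among members it ended the call of LPIN2 (adjusted p = 0.055) and gave one for PNPLA2 (adjusted p = 0.044). Depth limits genes near 1 CPM, such as PNPLA3, which had 21 to 37 counts per library.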

Other observations

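ELOVL3, MOGAT3, CIDEA, CIDEB and CES1 had 0 counts in all 6 libraries. By counting error alone, each could still stand at 3 counts, which is 0.166 to 0.180 CPM.

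METTL7A, a droplet-associated methyltransferase gene singled out after its values were seen, was counted 7, 7 and 5 times in the controls against 31, 13 and 27 times after knockdown. Its mean was below the filter of 1 CPM, so it was not tested. AGPAT1, a relative of AGPAT2, had 1 to 4 counts per library, while AGPAT2 had 1367 to 2011. AGPAT1 lies in a region with alternate sequences in the current human assembly, and the part of this in its low count was not tested, so the count does not show that the gene is silent.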
